A study of Mus musculus with 15 samples.

Results

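The genes described here are 10 genes commonly used as marks of the epicardium and of mesothelium: Krt8, Krt18, Krt19, Upk3b, Msln, Wt1, Tcf21, Aldh1a1, Aldh1a2 and Rarres2. They were chosen as a fixed list of symbols, and all 10 were among the 14337 genes of the deposited expression table. RPKM is a read count scaled to transcript length and to library size, and every value below is a log2 RPKM after conditional quantile normalisation by the authors, unless it is called a difference. Genes with a mean of 0 or more on that scale were tested, 12848 in all, among them 9 of the members. Wt1 (mean −0.93) fell short of the filter.

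The libraries were made by RNA-Seq of poly(A) RNA from primary cultures of wild-type C57/BL6 mouse cardiomyocytes, isolated from whole hearts of pups aged 1 to 3 days. After 5 days of culture and 24 h of starvation in 0.5% serum, cells were treated from day 6 and harvested on day 8. There were 3 saline control libraries (S1, S2, S3), 4 with angiotensin II at 1 µM (AngII; S5, S6, S7, S8), 4 with low-dose cilengitide at 20 nM (ldCil; S9, S10, S11, S12) and 4 with both agents (AngII+ldCil; S13, S14, S15, S16). AngII is a peptide hormone that enlarges cultured cardiomyocytes, and cilengitide is a cyclic peptide that binds αvβ3 integrin. The labels do not say that the libraries of a group are separate cultures, so a p-value here speaks of the spread among libraries alone, and that spread can be technical. No read counts were used, so depth is unknown.

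The epicardium is the mesothelial sheet on the outer surface of the heart. In the embryo some of its cells undergo an epithelial to mesenchymal transition and give rise to fibroblasts and mural cells, and the layer is a source of retinoic acid for the growing muscle. Adult epicardium is largely quiescent and takes up parts of its fetal programme again after injury.

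The cultures were dominated by cardiomyocyte transcripts. Actc1 (11.69), Myh6 (11.22) and Tnnt2 (11.07) had the highest mean levels among 10 cardiomyocyte genes, and the summed level of that list ranged only from 13.6 to 13.8 between libraries. Fibroblast transcripts were also abundant, with Col1a1 at a mean of 9.81 and a summed level of 10 fibroblast genes of 10.4 to 11.9. The summed level of the 9 tested members, 7.11 to 9.13, was below both sums in every library. Of 20 further epicardial and mesothelial genes, 15 were in the table and Muc16, Calb2, Gata5, Rspo1 and Dmkn were not among them. Pdpn (4.43), Tbx18 (3.69), C3 (3.69) and Ildr2 (3.61) had the highest means. Of 11 general epithelial genes, 10, including Epcam and Cdh1, were not in the table, and the other one, Cldn3, had a mean of −0.72. Several members are also used by other cells of the heart, Tcf21 by fibroblasts in particular. In such bulk samples, fewer cells of a type and less RNA per cell cannot be told apart.

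The members spanned a wide range of levels. In descending order of their means over 15 libraries they were Krt18 (6.38), Tcf21 (5.33), Aldh1a1 (5.19), Krt19 (3.70), Aldh1a2 (3.26), Msln (1.64), Rarres2 (1.49), Upk3b (0.70), Krt8 (0.54) and Wt1 (−0.93). Several neighbours in this order did not differ beyond their spread: Tcf21 exceeded Aldh1a1 in 8 of 15 libraries, Krt19 exceeded Aldh1a2 in 9, Msln exceeded Rarres2 in 8 and Upk3b exceeded Krt8 in 9. Krt18 exceeded Tcf21 in 11 libraries, Rarres2 exceeded Upk3b in 10, Aldh1a1 exceeded Krt19 and Aldh1a2 exceeded Msln in 13 each, and Krt8 exceeded Wt1 in 14. The defining epicardial transcription factor, Wt1, was thus the lowest of the 10, at 0.150 to 1.81 RPKM.

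Members varied between replicate libraries more than most genes. Their SD within groups ranged from 0.41 for Msln to 1.11 for Aldh1a2, against a median of 0.29 over all tested genes. Msln was at the 71.7th percentile of that spread and Aldh1a2 at the 98.0th. With this spread, the median member's 95% interval for a difference from control reached 1.03 log2 units to either side.

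**Figure D1:**
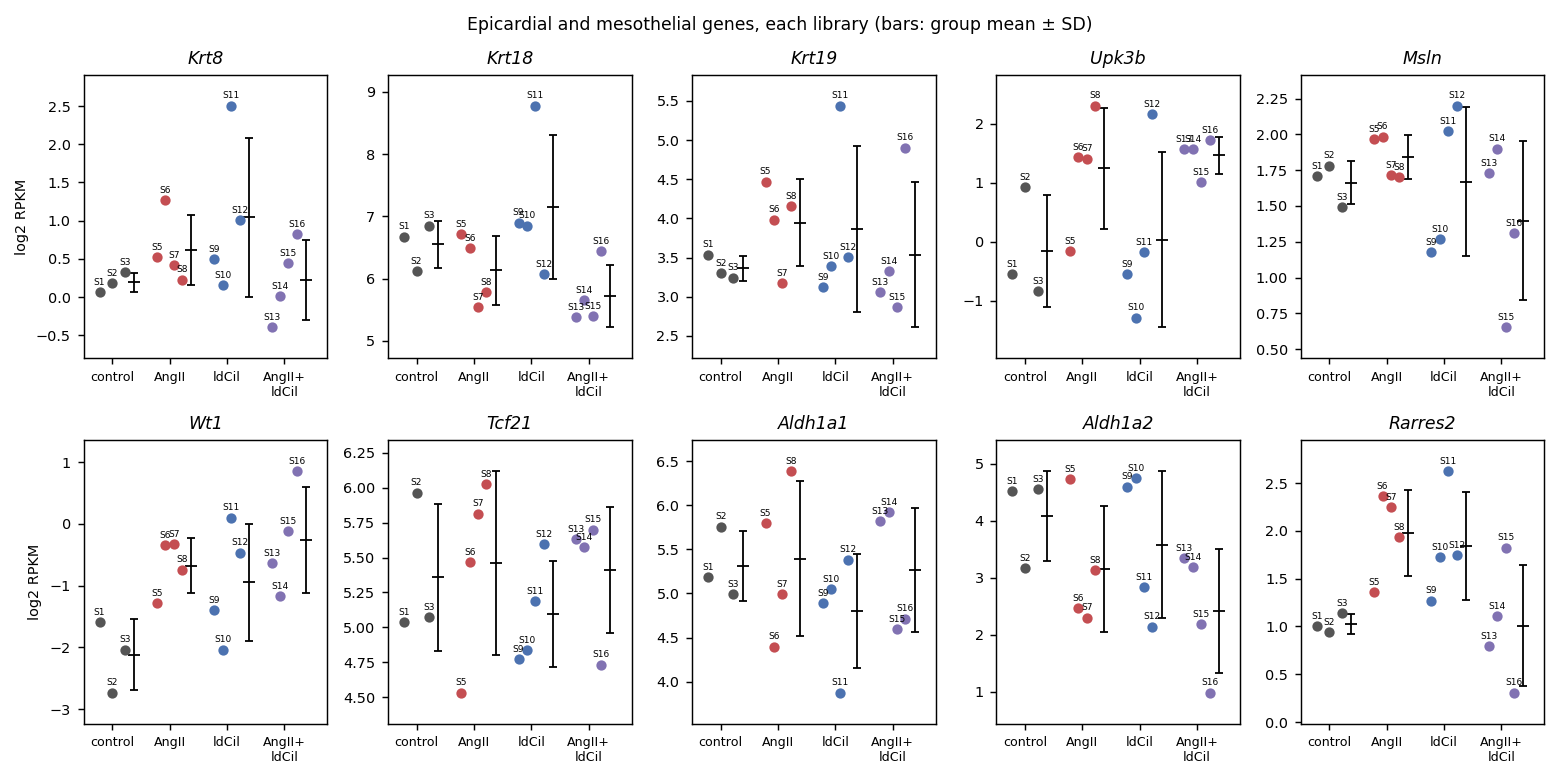
Log2 RPKM of each of the 10 genes in each library, by treatment group, with the library name over each point and the group mean ± SD (n = 3 control, 4 in each other group) at the right of each group. S11 stands above the other ldCil libraries for Krt8, Krt18 and Krt19, and Rarres2 in the AngII and in the ldCil libraries lies above all 3 controls.

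Sequence near the start site was looked at for the members with an entry among RefSeq promoters (GRCm38.p6), of which 6 of the 10 matched, with 7 start sites. The 250 bases before the start are shown for Aldh1a2 and Upk3b, since these went in opposite directions across the libraries (below). Capitals mark CG dinucleotides, of which the Aldh1a2 window at chr9:71215539-71215788 (plus strand) held 40 and the Upk3b window at chr5:136038246-136038495 (plus strand) held 2, against a median of 6 over 32851 promoter windows.
Aldh1a2: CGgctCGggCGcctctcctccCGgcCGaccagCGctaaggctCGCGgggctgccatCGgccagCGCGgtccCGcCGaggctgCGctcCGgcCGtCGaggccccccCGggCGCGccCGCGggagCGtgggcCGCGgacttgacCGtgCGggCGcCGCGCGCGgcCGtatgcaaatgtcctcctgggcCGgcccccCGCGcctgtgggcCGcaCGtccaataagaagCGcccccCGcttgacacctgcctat
Upk3b: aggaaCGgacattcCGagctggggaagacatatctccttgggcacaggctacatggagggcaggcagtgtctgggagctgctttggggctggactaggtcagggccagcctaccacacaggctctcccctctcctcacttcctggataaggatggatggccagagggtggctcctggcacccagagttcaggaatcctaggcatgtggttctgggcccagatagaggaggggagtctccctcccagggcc
The share of windows with as many or fewer CG dinucleotides was 98.9% for the Aldh1a2 window and 29.0% for that of Upk3b. Both strands were searched for short motifs. The TATA box, TATAAA, was in 12.4% of all the windows. The GC box of Sp1 factors, searched as GGGCGG, was present in 32.7%. The AP-1 site, searched for as TGANTCA, was present in 6.75%, and the TEAD motif, searched as GGAATG, was found in 12.6%. Matches were found for GGAATG in the Upk3b window, 241 bases before the start, and for TGANTCA and GGAATG at 1 of the 2 Aldh1a1 start sites, 57 and 168 bases before it, and they did not overlap. These letters were not in the windows of Aldh1a2, Krt8, Krt18 and Tcf21. A match is a description of letters, not of a bound factor.

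The comparisons with control asked what each agent did to cultured cardiomyocytes alone and together. AngII+ldCil against AngII asked what ldCil did on top of AngII, and AngII+ldCil against ldCil asked what AngII did on top of ldCil. All comparisons against control share the same 3 control libraries, and the comparisons of AngII+ldCil share its 4. By limma with Benjamini-Hochberg adjustment over all 12848 genes, no member passed an adjusted p of 0.05 in any of the 6 comparisons, and neither did any other gene (0% called in each). At an unadjusted p under 0.05, for AngII against control 1 of 9 members was called, against 6.04% of all genes, and for ldCil against control 1 of 9, against 1.95%. AngII+ldCil against control called 2 members (1 higher, 1 lower), against 5.62% of genes. AngII+ldCil against AngII called 1 (lower), against 2.58%, and AngII+ldCil against ldCil called 3 (1 higher, 2 lower), against 5.07%. For the AngII by ldCil interaction, the difference between the AngII effect with and without ldCil, 1 of 9 was called, against 3.86%. With 9 genes, a share near the background is not a result about the members. With each library weighted by its own noise (limma's arrayWeights), the number of members past an adjusted p of 0.05 was 5, 0, 3, 3, 6 and 2 in these comparisons, but the weights ran from 0.113 in S5 to 7.01 in S1, and 6245 genes were then called for AngII against control.

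**Figure D2:**
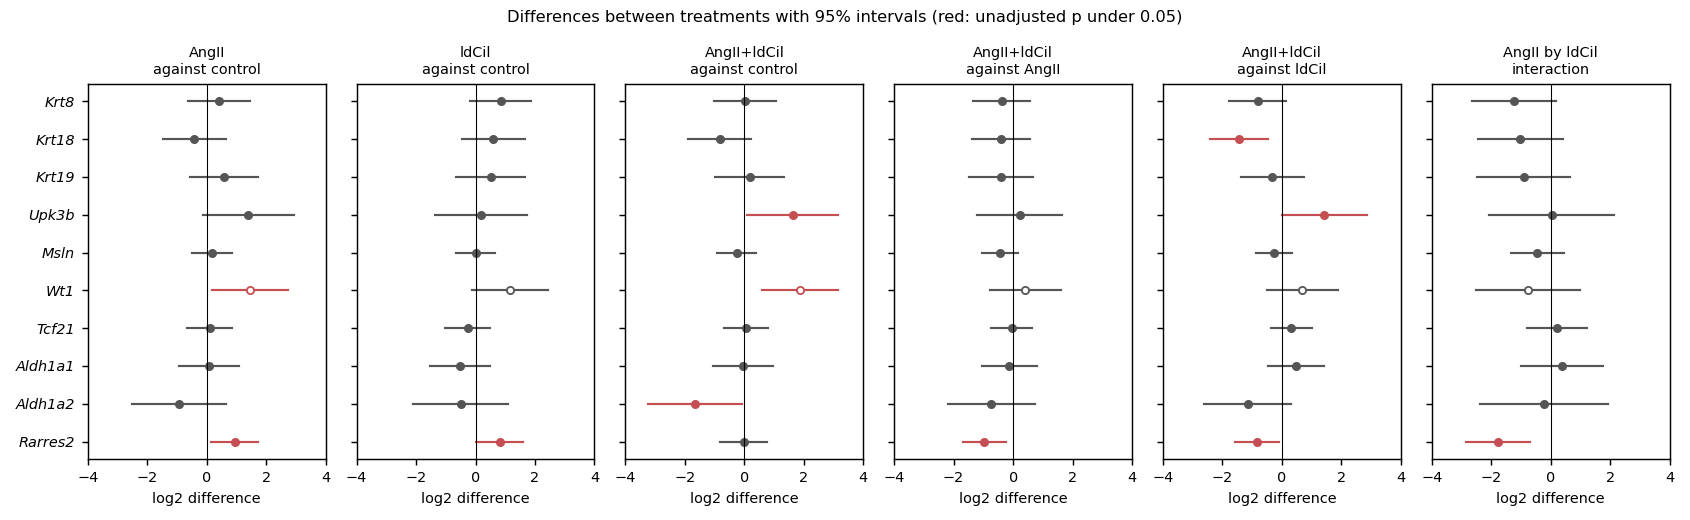
Log2 difference for each gene in each of the 6 comparisons, with its 95% interval from limma. Red marks an unadjusted p under 0.05 and the open circle is Wt1, fitted without the filter. Rarres2 is the one gene of the 10 in red in 5 of the 6 panels, and no gene passed an adjusted p of 0.05.

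Rarres2, which encodes the chemoattractant and adipokine chemerin, is a retinoid-responsive gene. Its level was 1.00, 0.94 and 1.14 in the control libraries S1, S2 and S3, and 1.36, 2.37, 2.25 and 1.93 in the AngII libraries S5 to S8. In the ldCil libraries S9 to S12 it was 1.27, 1.72, 2.63 and 1.75, and in the AngII+ldCil libraries S13 to S16 it was 0.79, 1.11, 1.83 and 0.31. Each AngII and each ldCil library was above every control, while the AngII+ldCil libraries surrounded the controls. The difference from control was 0.95 (SE 0.370, limma adjusted p = 0.782) with AngII and 0.81 (SE 0.370, limma adjusted p = 0.966) with ldCil. It was −0.02 for AngII+ldCil against control (SE 0.370). AngII+ldCil was below AngII by −0.97 (SE 0.342, limma adjusted p = 1.00) and below ldCil by −0.83 (SE 0.342, limma adjusted p = 0.974), with overlapping libraries in both cases. The interaction was −1.78 (SE 0.504, limma adjusted p = 0.958). Exact 2-sided permutation tests gave p = 0.0571 for AngII and for ldCil against control, the smallest possible with 3 against 4 libraries, and p = 0.0571 and p = 0.114 for AngII+ldCil against AngII and against ldCil, where 0.0286 was possible.

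The Rarres2 differences rested on few libraries in part. The unadjusted limma p for AngII against control rose above 0.05 without S1, S2, S6 or S7, with differences of 0.82 to 0.94, and after quantile normalisation (0.85). For ldCil against control the difference dropped to 0.55 without S11, and the unadjusted p was above 0.05 in 10 of the 15 fits that left out a library and after quantile normalisation (0.73). AngII+ldCil against ldCil was −0.57 without S11, −0.76 without S13 and −0.60 without S16, each with an unadjusted p above 0.05, and −0.34 without S11 and S16. The interaction and the difference of AngII+ldCil from AngII kept their direction and a p under 0.05 whichever library was left out, at −2.06 to −1.52 and at −1.24 to −0.74. Of the receptors for chemerin, Cmklr1 (mean 1.26) and Ccrl2 (2.29) were tested, Gpr1 was not in the table, and neither reached an unadjusted p of 0.05 in any comparison. Rarres2 overlaps Lrrc61 on the opposite strand over 1027 bases (GRCm38, chr6:48569696-48572789 for Rarres2). Since the strand setting of the counting is not given in the sources used here, their reads may not be separate. Lrrc61 ranged from 1.71 to 2.70.

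Krt8, Krt18 and Krt19 encode the keratins of simple epithelia, of which Krt8 and Krt18 pair in intermediate filaments. Krt18 was 6.67, 6.12 and 6.85 in control, 6.71, 6.49, 5.55 and 5.79 in AngII, 6.90, 6.85, 8.78 and 6.07 in ldCil and 5.38, 5.65, 5.39 and 6.44 in AngII+ldCil libraries. The highest, S11, was 1.88 above the next library. Krt8 was 0.07, 0.19 and 0.32 in control, 0.53, 1.27, 0.42 and 0.23 in AngII, 0.50, 0.16, 2.51 and 1.01 in ldCil and −0.39, 0.02, 0.45 and 0.83 in AngII+ldCil libraries. Krt19 was 3.54, 3.30 and 3.24 in control, 4.47, 3.98, 3.17 and 4.16 in AngII, 3.12, 3.39, 5.44 and 3.50 in ldCil and 3.06, 3.33, 2.86 and 4.90 in AngII+ldCil libraries. S11 was thus the highest library for all 3 keratins, and for Krt19 S16 was the next.

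Krt18 exceeded its filament partner Krt8 in all 15 libraries, by 5.84 ± 0.591 (SD, 4.95 to 6.69). The 2 genes are neighbours on chromosome 15 (Krt8 at chr15:101996698-102004482, minus strand, and Krt18 at chr15:102028180-102032027, plus strand, 23697 bases apart). Of Krt8's distinct 50-base stretches of transcript, 26.9% also occur in the pseudogene Krt8-ps, which can take reads from Krt8 where the counting drops reads with more than 1 match, and Krt8's level is uncertain to that extent. For Krt18 the share was 0.720%, and for Krt19 it was 0.

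For Krt18, AngII+ldCil was lower than ldCil by −1.44 (SE 0.458, limma adjusted p = 0.974, exact permutation p = 0.0571), and the groups overlapped through S12 and S16. Leaving out any 1 library gave −1.80 to −0.89, with an unadjusted limma p under 0.05 in each fit. The value without S11 was −0.89. S9 and S10 of ldCil were among the libraries with the highest interferon response, described further on, and no AngII+ldCil library was. For Krt8 and Krt19 the same comparison gave −0.82 and −0.33, neither with an unadjusted p under 0.05. Against control, no keratin reached an unadjusted limma p of 0.05 under any treatment. Krt19 in ldCil against control went from 0.50 to −0.02 without S11.

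Across the 15 libraries, Krt8 correlated with Krt18 at r = 0.73, Krt8 with Krt19 at r = 0.72 and Krt18 with Krt19 at r = 0.66. Without S11 these fell to 0.30, 0.44 and 0.32, so the likeness of the keratins rested largely on that library. The genes most like Krt8 were Hmox1 (r = 0.96), Osgin1 (0.96) and Brap (0.95), and those most like Krt18 were Txnrd1 (0.95), Eif4a1 (0.93) and Nmt1 (0.92). Hmox1, Osgin1 and Txnrd1 are known as genes of the oxidative stress response. Hmox1 was 9.80 in S11 and 5.84 to 8.10 in the other libraries, and Osgin1 was 5.98 in S11 and 1.29 to 3.43 elsewhere. Without S11 and S16, r was still 0.90 for Krt8 with Hmox1, 0.87 with Osgin1 and 0.90 for Krt18 with Txnrd1. Krt19 was most like Tinagl1 (0.91), Klhl26 (0.90) and Trim16 (0.90), with r of 0.75 to 0.78 without S11 and S16. These correlations are over 15 libraries that share treatments and other states, and carry no test. The part of any cell type or stress in S11 was not tested. Its summed cardiomyocyte list was the lowest of all, within a range of only 13.6 to 13.8. With each gene taken relative to its overall mean, that list averaged −0.07 in S11. It was lower, at −0.18 to −0.08, in S1, S3, S5, S9 and S10, and higher in the rest. Cldn3 was 0.18 in S11 against −3.67 to 1.18 elsewhere.

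**Figure D3:**
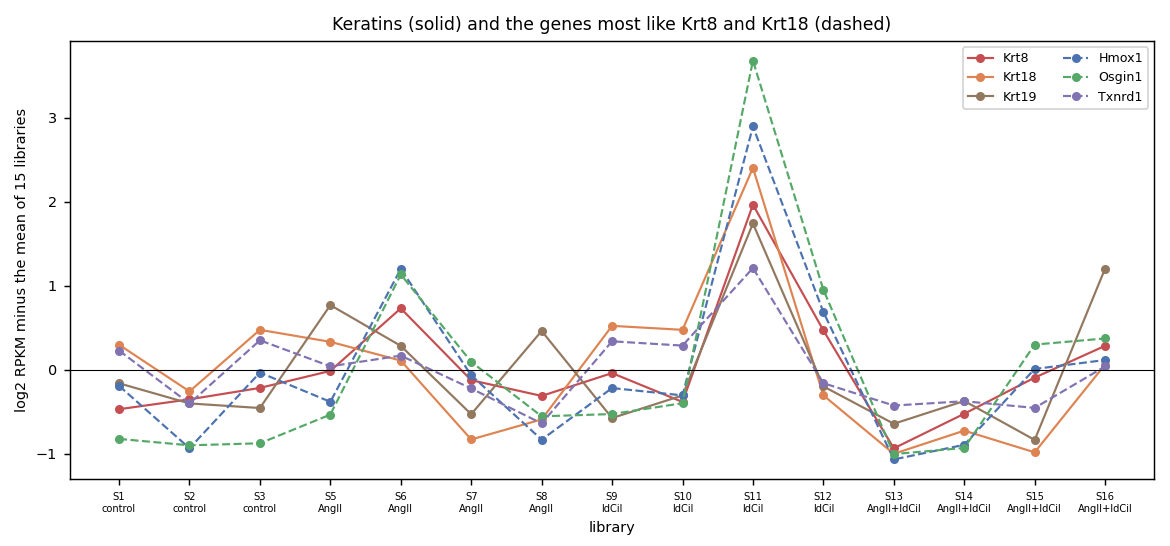
Log2 RPKM of Krt8, Krt18, Krt19 (solid) and of Hmox1, Osgin1 and Txnrd1 (dashed) minus each gene's mean over 15 libraries, by library. S11 is the highest library for all 6 genes.

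Upk3b encodes a uroplakin found on mesothelial surfaces, and Msln encodes the cell surface protein mesothelin. Upk3b was −0.56, 0.93 and −0.84 in control, −0.16, 1.43, 1.41 and 2.31 in AngII, −0.56, −1.29, −0.18 and 2.16 in ldCil and 1.56, 1.57, 1.01 and 1.72 in AngII+ldCil libraries. All 4 AngII+ldCil libraries were above all 3 controls, by as little as 0.08, while ldCil alone spread over the whole range. The difference of AngII+ldCil from control was 1.62 (SE 0.720, limma adjusted p = 0.849, exact permutation p = 0.0571) and from ldCil 1.43 (SE 0.667, limma adjusted p = 0.974). AngII against control gave 1.40, with an unadjusted p above 0.05. The first lost its unadjusted p under 0.05 without S1, S3, S13, S14 or S16 (1.28 to 1.59), and after quantile normalisation (1.24), and the second in 11 of 15 such fits. Msln was 1.71, 1.78 and 1.49 in control, 1.97, 1.98, 1.72 and 1.70 in AngII, 1.18, 1.27, 2.02 and 2.20 in ldCil and 1.73, 1.90, 0.65 and 1.31 in AngII+ldCil libraries. Its differences ran from −0.45 (interaction) and −0.44 (AngII+ldCil against AngII) to 0.18 (AngII against control), none with an unadjusted limma p under 0.05.

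Wt1 and Tcf21 are transcription factors of the epicardium, Tcf21 also marking cardiac fibroblasts. Wt1 was −1.59, −2.73 and −2.04 in control, −1.29, −0.35, −0.33 and −0.74 in AngII, −1.40, −2.04, 0.10 and −0.47 in ldCil and −0.63, −1.17, −0.12 and 0.86 in AngII+ldCil libraries. No AngII or AngII+ldCil library overlapped the controls. Of the 5 libraries with the highest interferon response, described further on, 2 were controls, 1 was an AngII and none an AngII+ldCil library, and Wt1 was low in them, at −2.04 to −1.29. Fitted with limma without the filter, the difference was 1.44 for AngII (SE 0.598, adjusted p = 0.595) and 1.86 for AngII+ldCil (SE 0.598, adjusted p = 0.662), with an exact permutation p of 0.0571 for each. At 0.150 to 1.81 RPKM, Wt1 was close to the bottom of the table, and with 1 added to RPKM, the difference for AngII was 0.40 and after quantile normalisation 0.35, both with an unadjusted p above 0.05. The p for AngII was above 0.05 without S2, S3, S6 or S7 (1.14, 1.49, 1.33 and 1.33), while that for AngII+ldCil stayed under 0.05 whichever library was left out (1.48 to 2.16), with 1 added to RPKM (0.61) and after quantile normalisation (1.07). Over all 10 members, groups did not overlap for 2 with AngII against control (Wt1, Rarres2, 11.7% of all genes), 1 with ldCil (Rarres2, 6.95%) and 2 with AngII+ldCil (Wt1, Upk3b, 15.1%). For AngII+ldCil against AngII and against ldCil there was none (1.44% and 3.05%).

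Tcf21 was 5.04, 5.97 and 5.07 in control, 4.53, 5.47, 5.81 and 6.03 in AngII, 4.77, 4.84, 5.19 and 5.60 in ldCil and 5.63, 5.57, 5.70 and 4.73 in AngII+ldCil libraries. The groups overlapped throughout, with group means of 5.10 to 5.46 and no unadjusted limma p under 0.05. Tcf21 lies wholly inside the antisense transcript Gm10824 (mean 0.06), which could not be told apart from it if strand was not used. It was most like Cthrc1 (r = 0.91), Snapin (0.90) and Tmem119 (0.89).

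Aldh1a1 and Aldh1a2 encode retinaldehyde dehydrogenases, the enzymes that make retinoic acid, and Aldh1a2 is the main one of the embryonic epicardium. Aldh1a2 was 4.52, 3.17 and 4.55 in control, 4.72, 2.46, 2.30 and 3.14 in AngII, 4.59, 4.75, 2.84 and 2.15 in ldCil and 3.34, 3.18, 2.19 and 0.99 in AngII+ldCil libraries. Within control, AngII and ldCil, some libraries lay at 4.52 to 4.75 and the rest at 2.15 to 3.17, while no AngII+ldCil library was above 3.34. AngII+ldCil was below control by −1.66 (SE 0.743, limma adjusted p = 0.849, exact permutation p = 0.171). The unadjusted limma p was above 0.05 without S1, S3, S8, S15 or S16, and the difference was −1.18 without S16. Aldh1a1 was 5.19, 5.76 and 4.99 in control, 5.80, 4.40, 4.99 and 6.39 in AngII, 4.89, 5.05, 3.88 and 5.38 in ldCil and 5.82, 5.93, 4.60 and 4.72 in AngII+ldCil libraries, and no comparison reached an unadjusted limma p under 0.05. The paralogue Aldh1a7 shares 3.06% of Aldh1a1's 50-base stretches and had a mean of 2.68. Aldh1a1 was most like Ccn5 (r = 0.95), Acvrl1 (0.94) and Cemip (0.93).

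Of 16 other genes of retinoic acid handling, 12 were in the table and 11 tested, and none passed an adjusted p of 0.05 by limma. At an unadjusted p under 0.05 with AngII against control, the retinaldehyde reductase Dhrs3 differed by −0.66, the third retinaldehyde dehydrogenase Aldh1a3 by 0.98 and the receptor Rara by 0.43 (2 higher and 1 lower of 11, beside 6.04% of all genes). With AngII+ldCil against control, Dhrs3 differed by −0.58. The retinoic acid degrading enzyme Cyp26b1 was lower in AngII+ldCil than in ldCil by −1.02, with an interaction of −1.53. No retinoic acid gene was called in the other comparisons. The median over the 11 genes was 0.22 for AngII, 0.13 for ldCil and 0.02 for AngII+ldCil against control. Of the further epicardial and mesothelial list, 12 genes were tested, and none passed an adjusted p of 0.05 by limma. At an unadjusted p under 0.05, 1 of the 12 was called for AngII against control. The same count was called for AngII+ldCil against control and against ldCil. The shares of all genes were 6.04%, 5.62% and 5.07%. The complement gene C3 differed by −3.25 with AngII, and Sema3d by 1.09 in AngII+ldCil against control and 1.06 against ldCil. Both also parted without overlap by the division described next, C3 at 5.39 to 6.47 in 5 libraries and 0.74 to 4.98 in the other 10, and Sema3d at 1.53 to 2.16 and 2.18 to 3.78.

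Aldh1a2 divided the libraries in a way that cut across treatment, and Upk3b and Wt1 did so in part. Of 15 interferon response genes, 14 were tested and averaged in each library. The 5 libraries with the highest mean, S1, S3, S5, S9 and S10, stood at 2.08 to 2.74 above the overall mean of that list. The other 10 stood at −2.04 to 0.56. Among them S2, S8, S13 and S14 stood at −0.75 to 0.56, and S6, S7, S11, S12, S15 and S16 at −2.04 to −1.58. No control library was in the lower set, and the part of that in the differences from control was not tested. The 5 with the highest mean were also apart on the first principal component of all genes, which held 49% of the variance. Aldh1a2 was 4.52 to 4.75 in the 5 and 0.99 to 3.34 in the other 10, with no overlap. Among the 10 it was 3.14 to 3.34 in S2, S8, S13 and S14 and 0.99 to 2.84 in the rest. Such a parting was not particular to Aldh1a2. Pdpn (5.9 to 6.2 against 2.6 to 5.0) and the fibroblast gene Dcn (8.0 to 8.9 against 3.5 to 7.2) also parted without overlap. Of 12839 genes, 163 had r above 0.9 with Aldh1a2. The share of all genes that part this way was not counted. Upk3b was −1.29 to −0.16 in the 5 and −0.18 to 2.31 in the others, and Tcf21 was 4.53 to 5.07 against 4.73 to 6.03. Wt1 was −2.04 to −1.29 in the 5, and in the others it was −2.73 in S2 and −1.17 to 0.86 in the rest. Within control, AngII and ldCil alike, Aldh1a2 was higher in these libraries, by 1.36, 2.09 and 2.18, and Upk3b lower, by −1.63, −1.88 and −1.91. For Wt1 the same differences were 0.92 in control, −0.82 in AngII and −1.54 in ldCil. In the same order they were 0.64, 0.77 and −0.55 for Krt18, and 0.13, −0.83 and −0.69 for Rarres2. Krt18 was 6.67 to 6.90 in the 5 and 5.38 to 8.78 in the others. No AngII+ldCil library was among the 5, so its Aldh1a2, Upk3b, Wt1 and Sema3d differences from control cannot be told apart from this division. Of the 5, 2 were among the 3 controls and 1 among the 4 AngII libraries. S9 and S10 were ldCil libraries. The part of this in the Wt1 and C3 differences with AngII was not tested. Nor was it tested for the Rarres2 differences, or for those of Krt18, Upk3b and Sema3d between AngII+ldCil and ldCil. The cardiomyocyte list, relative to its overall mean, was −0.18 to −0.08 in the 5 and −0.07 to 0.27 in the others, without overlap, and the macrophage list was 0.21 to 1.27 and −1.48 to 0.46. The part of either in these results was not tested. The libraries were divided after seeing the data and no test is given.

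**Figure D4:**
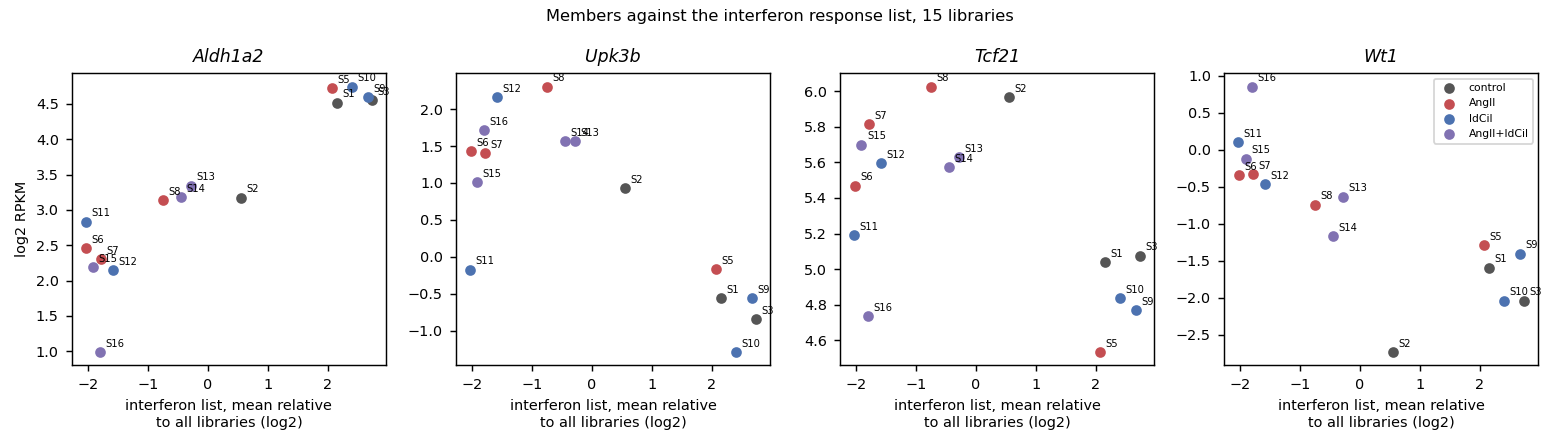
Log2 RPKM of Aldh1a2, Upk3b, Tcf21 and Wt1 against the mean of the interferon response list relative to all libraries (log2), 15 libraries coloured by treatment. The 5 libraries at the right hold the highest Aldh1a2 values, 4.52 to 4.75, and low Upk3b.

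Aldh1a2 was most like Ptprn (r = 0.98), Ifi203 (0.97) and Alpl (0.97), and within the 10 libraries outside that set r was 0.98, 0.92 and 0.90. Upk3b was most like Kank4 (0.94), Fbln5 (0.92) and Fzd8 (0.91), and within those 10 libraries r was 0.76, 0.83 and 0.80. Those 10 libraries still ranged from −2.04 to 0.56 on the interferon list, and the part of that range in these r was not tested. Rarres2 was most like Sprr1a (0.96), Camk2b (0.93) and Snhg5 (0.91). Msln had no near match (Snrpa 0.80, Wsb2 0.79, Impa2 0.77). The mean of the 9 tested members was most like Btbd3 (0.88), S100a10, Csgalnact2, Nmt2 and Atf3.

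The 10 genes did not vary as a single group. Over 45 pairs of members the median r was 0.16, with 6 pairs above 0.5 and 6 below −0.5. Aldh1a2 ran opposite to Upk3b (r = −0.78) and to Wt1 (−0.77), Krt8 opposite to Aldh1a1 (−0.72), and Upk3b with Tcf21 (0.67). S16, a library of AngII+ldCil, was lowest for Aldh1a2 and Rarres2 and highest for Wt1. It was also the lowest for the macrophage list (−1.48) and the fibroblast list (−1.05), and whether these play a part was not tested.

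**Figure D5:**
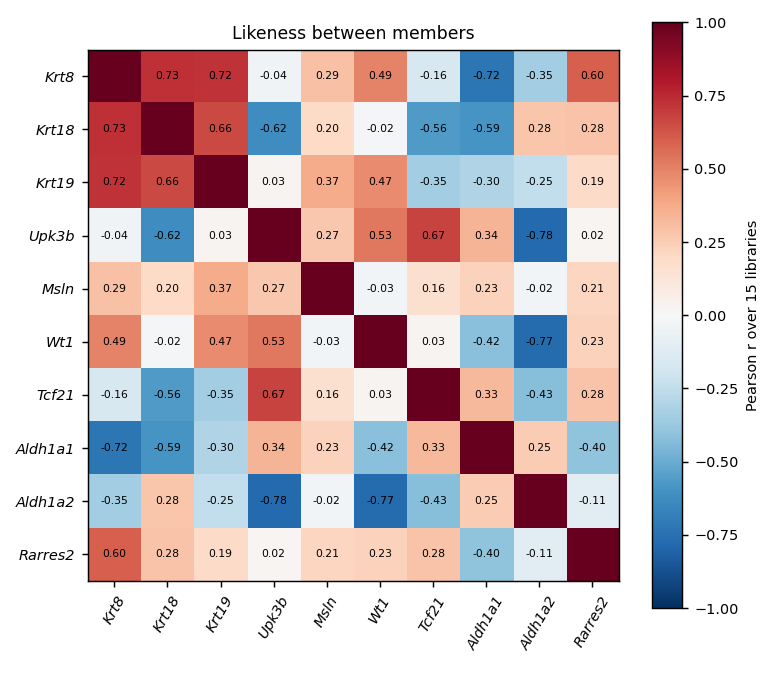
Pearson r between the log2 RPKM of each pair of the 10 genes over 15 libraries, from −1 (blue) to 1 (red). The keratins correlate at 0.66 to 0.73, and Aldh1a2 has r of −0.78 with Upk3b and −0.77 with Wt1.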

How the data were processed

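RNA-Seq of poly(A) RNA was analysed in 15 libraries in 4 groups. Per the submitters' processing notes the authors used HISAT2, HTSeq and GRCm38 (mm10). The tool versions, the annotation and the strand setting remain not given in the sources used here. Deposited log2 RPKM values had been passed by the authors through conditional quantile normalisation. They hold no counts, so depth and its precision are unknown, and every sample column was mapped to a library. Gene identifiers were matched to GENCODE M21, 14329 of 14337, 12695 with the same version.

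R 4.3.3 with limma 3.58.1 fitted 1 mean per group to all 15 libraries, with a trend on mean expression. The 12848 genes with a mean of at least 0 were tested, 2-sided, with Benjamini-Hochberg adjustment over all of them. The fit was tested on simulated data. Exact permutation tests and correlations used Python 3.11.15 with SciPy 1.17.1. Read sharing was counted as stretches of 50 bases in the transcripts. The members, the gene lists and the tests were chosen with earlier results of these data known. Named genes were all members, the 4 highest genes of each list, up to 2 per comparison with the smallest p under 0.05, and the 3 genes most like each member (5 for their mean).

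Alternatives were the filter (none, or 2), median centring, quantile normalisation, 0.1 or 1 added to RPKM, only the groups compared, no trend, robust moderation, library weights, Spearman correlation, and leaving out each library. Leaving out S11 and S16 together, the division by the interferon list and Hmox1, Osgin1 and Txnrd1 as plotted genes were chosen after seeing the data.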

Additional observations from a re-analysis of the deposited data

Results flagged for a closer look

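In 30 groups of 4 libraries, single libraries standing apart were looked for, of which chance gives about 1 in 20. For Krt19 in ldCil, S11 (5.44) lay far above the other libraries (3.12 to 3.50). For Tcf21 in AngII+ldCil, S16 (4.73) lay far below the others (5.57 to 5.70).

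The effect of AngII differed in sign without and with ldCil for Krt8, 0.42 and −0.82 (a difference of −1.24). Each AngII library was above the control mean and each AngII+ldCil library below the ldCil mean. That ldCil mean, 1.04, rested in part on S11 (2.51). The other ldCil libraries were at 0.16 to 1.01, and S16 of AngII+ldCil was at 0.83. Without S11 the AngII effect with ldCil was −0.33. The limma test of the interaction did not reach an unadjusted p of 0.05. For Rarres2 the AngII effect was 0.95 without and −0.83 with ldCil, and the ldCil effect was 0.81 without and −0.97 with AngII, a difference of −1.78 in either reading (limma interaction, adjusted p = 0.958).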

How the results depend on the processing

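Each comparison was summarised by its number of members at an unadjusted limma p under 0.05: 1 for AngII, 1 for ldCil and 2 for AngII+ldCil against control, 1 for AngII+ldCil against AngII, 3 against ldCil and 1 for the interaction. Without the filter, AngII against control gave 2 and AngII+ldCil against control 3. With a filter of 2, which leaves out Rarres2 and Upk3b, the counts were 0, 0, 1, 0, 1 and 0. Quantile normalisation gave 0, 0 and 1 for the comparisons with control. Library weights gave 5, 5, 3, 7 and 3 in the order above without ldCil against control. A fit of only the groups compared gave 1 for AngII+ldCil against ldCil. Leaving out S11 and S16 together gave 2, 0, 1, 3, 1 and 2. Leaving out each library in turn gave 0 to 2, 0 to 1, 0 to 3, 1 to 1, 1 to 4 and 1 to 2. Of the differences of single members, 1343 kept direction and side of the threshold, 58 lost and 30 gained a p under 0.05, and 84 changed sign. Of 30 recomputed member levels, 3 moved by more than 1 SD.

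None of the differences that changed sign had an unadjusted p under 0.05 as first fitted. With library weights they were −0.29 for Aldh1a1 with AngII against control. They were 0.069, −0.086, −0.30 and −0.36 for Aldh1a2, Krt19, Upk3b and Msln with ldCil. They were −0.22, −0.25, 0.58 and 0.078 for Krt19, Krt8, Aldh1a1 and Msln with AngII+ldCil. They were 0.69, 0.87 and −0.45 for Aldh1a2, Aldh1a1 and Wt1 in AngII+ldCil against AngII, 0.44 for Msln against ldCil, and 0.62 and 0.32 for Aldh1a2 and Msln in the interaction. The values of 0.58, 0.87 and 0.44 then had an unadjusted p under 0.05. With quantile normalisation they were −0.068 and −0.00947 for Upk3b and Msln with ldCil, −0.25 for Krt8 with AngII+ldCil and 0.13 for Wt1 in the interaction. With 1 added to RPKM they were 0.00953 for Rarres2 with AngII+ldCil against control and −0.073 for Upk3b in the interaction. Without S11 and S16 they were −0.020 and −0.11 for Krt19 and Msln with ldCil, 0.21, −0.28, −0.17 and 0.14 for Rarres2, Krt19, Krt8 and Aldh1a1 with AngII+ldCil against control, 0.17 and 0.056 for Tcf21 and Aldh1a1 against AngII, and −0.13 for Upk3b in the interaction. The cause was not tested.

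Leaving out 1 library gave both signs in these ranges. For AngII against control they were −0.25 to 0.41 for Aldh1a1 and −0.087 to 0.41 for Tcf21. For ldCil against control they were −0.020 to 0.75 for Krt19, −0.17 to 0.17 for Msln, −0.43 to 0.042 for Tcf21 and −0.52 to 0.73 for Upk3b. For AngII+ldCil against control they were −0.27 to 0.17 for Aldh1a1, −0.28 to 0.40 for Krt19, −0.17 to 0.24 for Krt8, −0.29 to 0.21 for Rarres2 and −0.11 to 0.35 for Tcf21. Against AngII they were −0.46 to 0.20 for Aldh1a1, −0.36 to 0.17 for Tcf21 and −0.25 to 0.57 for Upk3b, and against ldCil −0.78 to 0.20 for Krt19. In the interaction they were −0.71 to 0.29 for Aldh1a2, −0.10 to 0.43 for Tcf21 and −0.51 to 0.74 for Upk3b.

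No paired analysis was possible because the library names carry no number shared between groups. The median r over pairs of tested members was 0.18, and 0.07 to 0.18 without single libraries. Depth is unknown, so low values such as those of Wt1 and Upk3b have no counting interval, and groups of 3 and 4 cannot reach an exact permutation p below 0.0571.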
